A study of Drosophila melanogaster with 3 samples.

Results

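Genes of pre-ribosome assembly and of the nucleolus were examined for binding of Myc in the Drosophila melanogaster embryo. The 32 listed genes were matched by symbol to the Ensembl annotation. Of these, 31 matched a current symbol, and Nat10 matched l(1)G0020 through a synonym once letter case was ignored. They are 32 of 13945 protein-coding genes on the main chromosome arms. The study located Myc by sequencing immunoprecipitated chromatin (ChIP-seq) in 3 biological replicates, which form 1 group and share 1 transgenic line. The flies of the line dm-GFP stably express Myc, product of the gene diminutive (dm), fused at its C terminus to green fluorescent protein (GFP), and an anti-GFP antibody was used for the precipitation. Whole embryos of mixed sex, collected over 0 to 16 h of development, were used. The promoter that drives the transgene, and whether untagged Myc was present beside it, are not stated in the labels. With whole embryos, binding in fewer cells and weaker binding in each cell cannot be told apart, and no treated or mutant group exists to compare with.

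Myc is a basic helix-loop-helix transcription factor that binds DNA together with Max at E-boxes, of which CACGTG is the canonical form. It is known for driving cell growth, in large part through genes of ribosome production. Ribosomal RNA is made and folded in the nucleolus, where assembly factors join it. The small-subunit processome, with the U3 particle at its centre, forms on the early transcript, whereas the large subunit is built through a series of particles in the nucleolus and nucleus and receives its last factors on export to the cytoplasm. From roles largely known in yeast, 11 genes were taken as small-subunit factors, 17 as large-subunit factors, 1 (pit) as acting on both, and 3 (Mybbp1A, nclb and Nop17l) as not assigned.

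The main pattern at these promoters was a CACGTG a short way inside the transcribed region. The stretches below were cut around a box, so they illustrate this pattern and do not measure it. Members without a CACGTG in the peak, such as Noc3, have no stretch here. Stretches of 30 bases are given 5′ to 3′ on the strand of the gene, from the RefSeq copy of the dm6 genome, with CACGTG in capitals. Shown for each class are the 4 strongest members with a box within 50 bp of the summit, the point of highest signal in the peak, leaving out genes of 1 chromosome arm whose sequence is not printed. Ns1, RIOK2 and RIOK1, whose peaks are the highest outside that arm, are added although their box lies farther from the summit. The first set is of large-subunit factors.
RpL24-like (chr3R:11431534-11431563, minus strand, box centred 34 bp downstream of the start): tcttcagcagcaCACGTGctagcagcttgc
Noc2 (chr2L:21163632-21163661, plus strand, 5 bp downstream): cgttgaacagcaCACGTGcatttttgtttt
ppan (chr3R:21116256-21116285, plus strand, 16 bp downstream): cactgatccataCACGTGcgggagaaaagt
Ns3 (chrX:1464162-1464191, minus strand, 44 bp downstream): gggcaaacattgCACGTGtttttgacaatc
Ns1 (chr3R:17072636-17072665, minus strand, 25 bp downstream): gaagactattttCACGTGttcttgttttaa
The second set is of small-subunit factors, and bys holds 2 boxes.
l(3)72Dn (chr3L:16228691-16228720, minus strand, 32 bp downstream): ctcttaggcacaCACGTGcatctccagagg
bys, upstream box (chrX:7901843-7901872, plus strand): gcgacgttgccaCACGTGcgaaaatgtgtt
bys, downstream box (chrX:7901912-7901941, plus strand, 46 bp downstream): gctttgttgcagCACGTGtagtgattacaa
FBgn0010926, counterpart of yeast Nop14 (chr3R:17539915-17539944, minus strand, 34 bp downstream): gttattgggttgCACGTGtgaggtgttttg
mbm (chr2L:273664-273693, minus strand, 37 bp downstream): caatcggctcaaCACGTGcgccgcaactag
RIOK2 (chr3R:25265837-25265866, plus strand, 7 bp downstream): ctatcgtgcctgCACGTGtgaaacgaaaac
RIOK1 (chr3L:11648421-11648450, minus strand, 39 bp downstream): tggcattcgcaaCACGTGcgattggttgta

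All 32 genes had a Myc peak within 500 bp of a start, although some of these peaks lay nearer to a neighbouring gene's start. The list filtered by irreproducible discovery rate (IDR), a measure of how alike peaks rank in different replicates, held 4371 peaks, of which 2991 had their summit within 500 bp of an annotated start of a protein-coding gene. By that rule 32 of 32 members were bound (95% Wilson interval 89.3 to 100%), beside 26.0% of all protein-coding genes. The interval covers counting error over genes only, and the members were chosen with earlier results known. As a measure of spread, the 4371 strongest peaks of each replicate's own list were treated alike, and 97.9% ± 1.80 (SD, n = 3) of members had such a peak at a start. In all 3 replicates at once, 30 members had one, against 18.2% of all genes. The exceptions were Noc1 and Nop17l. At Ns1, Mybbp1A and Noc1 the summit of the strongest IDR peak was nearer to the start of a neighbouring gene. When each IDR summit counted only for the gene of its nearest start, 30 members were bound, with Ns1 and Noc1 lost. The share of all genes was not counted in that way.

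The peaks were high within the list. Their deposited signal, the authors' own score per peak, had a median of 479 and ranged from 130 at Nop17l to 1046 at RIOK2, while the median over all promoter peaks was 186. A signal of at least 458, which 10.0% of promoter peaks reached, was found at 18 members, and 31 of 32 lay above the promoter median. Within a replicate, signal was scaled to that replicate's median at IDR peaks. This relative signal at the members had a median of 3.00 in replicate 1, 2.89 in replicate 2 and 1.95 in replicate 3. It exceeded 1 at 31 of 32 members in replicate 1, at 30 of 31 in replicate 2 and at 28 of 32 in replicate 3.

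**Figure D1:**
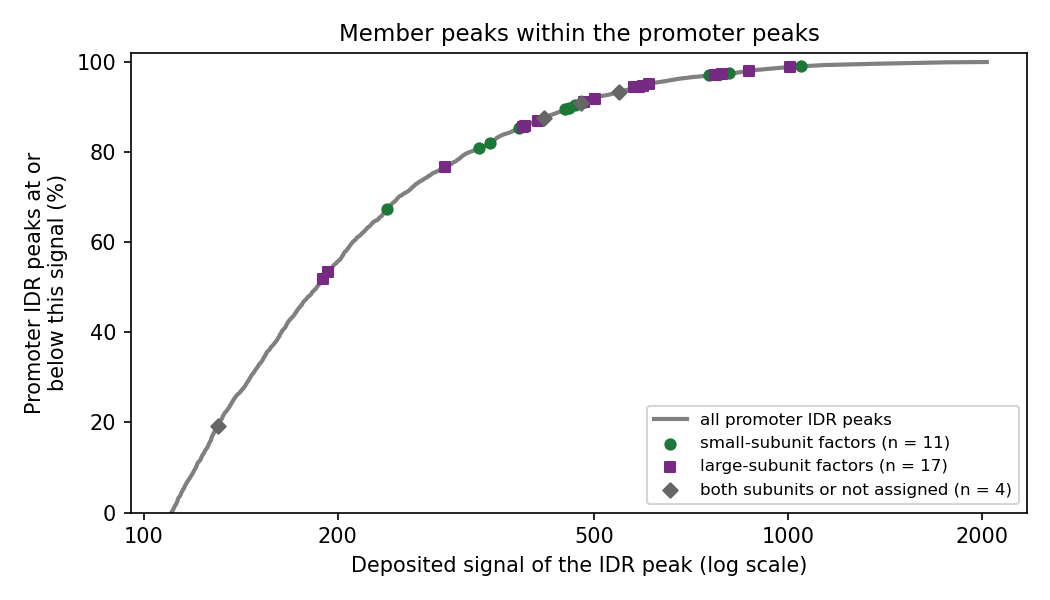
Each point is the strongest promoter IDR peak of a member, placed by its deposited signal (x axis, log scale) and by the percentage of the 2991 promoter IDR peaks at or below that signal (y axis); the grey line is the same for all promoter peaks. The points lie mostly in the upper part of the curve, with small- and large-subunit factors interspersed, and Nop17l is the lowest at a signal of 130.

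Replicate 3 stood below the others at these genes. Of the 31 members measured in all 3 replicates, 29 had their lowest relative signal in replicate 3, beside 40.7% of the IDR peaks found in all 3. The upper tail of the whole list differed less, with the 95th percentile of relative signal at 3.38, 3.29 and 3.18 in replicates 1, 2 and 3. Related genes taken up below also had their lowest median relative signal in replicate 3. In the same order it was 2.73, 2.96 and 1.83 at other assembly factors. It was 4.84, 6.04 and 3.24 at core genes of small nucleolar particles, and 3.23, 2.78 and 2.18 at cytosolic ribosomal protein genes. Across the 31 or 32 member peaks, which are not independent and share their libraries, Spearman's rho was 0.954 for replicates 1 and 2, 0.892 for replicates 1 and 3, and 0.860 for replicates 2 and 3. The order of the members was thus similar in the 3 libraries, while the height above the list's median was not. The reason for the lower values in replicate 3 was not tested.

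Among small-subunit factors the highest peaks were at the genes of the atypical RIO kinases, which act late, on nearly finished particles in the cytoplasm. At RIOK2 (chr3R:25265614-25265983) the signal was 1046, and the relative signal was 6.81, 5.65 and 4.46 in replicates 1, 2 and 3 (mean 5.64 ± 1.17, SD, n = 3). Its peak lay between RIOK2 and GlnRS, the glutaminyl-tRNA synthetase gene, with the summit 56 bp from the start of RIOK2 and 67 bp from that of GlnRS. RIOK1 (chr3L:11648333-11648829, signal 810) had 4.89, 5.25 and 3.62 (4.58 ± 0.854). No other small-subunit factor reached these kinases in any replicate except U3-55K, which equalled RIOK1 in replicate 1.

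Genes of the small-subunit processome followed over a wide range. U3-55K, the gene of a protein of the U3 particle, had a signal of 753 (chr2R:14860624-14860931) and relative signals of 4.89, 4.22 and 3.14 (4.08 ± 0.884). At l(3)72Dn, a processome gene, the values were 2.79, 2.77 and 2.30 (2.62 ± 0.276). The helicase gene kz (kurz) had 2.98, 2.97 and 1.71 (2.55 ± 0.729). Compared within replicates, kz was above l(3)72Dn in replicates 1 and 2 and below it in replicate 3. Lower were the counterpart of yeast Nop14 (FBgn0010926), at 1.74, 2.35 and 1.67 (1.92 ± 0.377), and Mat89Ba, another processome gene, at 1.59, 1.59 and 0.790 (1.32 ± 0.462). Mat89Ba was the weakest of the 11 small-subunit factors in each replicate. The gene mbm (mushroom body miniature), which in the fly codes for a nucleolar protein of neuroblasts, had 2.24, 1.77 and 1.40 (1.81 ± 0.423). The gene bys codes for bystin, a factor of late small-subunit particles, and had 2.81, 2.40 and 2.26 (2.49 ± 0.282). The remaining pair, l(1)G0020 (the RNA acetyltransferase Nat10) and wcd (wicked, counterpart of yeast Utp18), had signals of 457 and 383.

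Among large-subunit factors, Ns1 and Ns2 of the nucleostemin family of GTPases had high peaks. Ns1 (chr3R:17072532-17072878), the gene of nucleostemin, had a signal of 1008 and relative signals of 6.77, 5.38 and 4.27 (5.47 ± 1.25, SD, n = 3). Its peak also lay at the mitochondrial ribosomal protein gene mRpS11, whose start was the nearer, 24 bp from the summit against 33 bp. Ns2, counterpart of yeast Nog2, had 4.41, 4.45 and 3.71 (4.19 ± 0.415), and the GTPase gene Non1, counterpart of yeast Nog1, had 4.81, 4.36 and 3.55 (4.24 ± 0.641). Ns1 was above both of these in every replicate. Ns3, a member of the nucleostemin family that acts in the cytoplasm in yeast, as Lsg1, had a signal of 502. This was below the median of 577 over the large-subunit factors.

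The genes of proteins resembling ribosomal proteins, which hold the places of those proteins during assembly, also had high peaks. RpLP0-like, counterpart of yeast Mrt4, had a signal of 868 (chr2R:10099417-10099810) and relative signals of 5.67, 5.68 and 3.10 (4.82 ± 1.48), and it shares its promoter with 14-3-3zeta. RpL24-like, counterpart of yeast Rlp24, had 5.28, 4.75 and 2.92 (4.32 ± 1.24). These and the GTPase genes Ns1, Ns2 and Non1 are the 5 strongest large-subunit factors by deposited signal. The replicate values of the 4 below Ns1 overlapped. RpLP0-like was above Ns1 in replicate 2, at 5.68 against 5.38, and below it in replicates 1 and 3.

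The 3 genes of the Noc proteins, which accompany large-subunit precursors in yeast, had peaks of different height. Noc2 (signal 609) and Noc3 (signal 596) were above the median of all members, whereas Noc1 had a signal of 193 and relative signals of 1.37, 1.40 and 0.559 (1.11 ± 0.477). Only for Noc1 among these did the summit lie far from the gene's own start, at -410 bp, next to the start of Pfdn2, a prefoldin subunit gene, 29 bp away. The weakest of the large-subunit factors was Mys45A, counterpart of yeast Sda1, with 1.22, 1.23 and 0.642 (1.03 ± 0.336), and FBgn0022288, a WD-repeat protein gene (counterpart of yeast Rrb1), had 1.68, 1.96 and 1.16 (1.60 ± 0.405). Compared within replicates, Mys45A was below Noc1 in replicates 1 and 2 and above it in replicate 3. At Nle (Notchless, counterpart of yeast Rsa4) the relative signal was 2.76 in replicate 1 and 1.40 in replicate 3. Replicate 2 had no summit within 100 bp of the IDR summit there, and within 200 bp its value was 2.94. The other large-subunit factors (ppan, Surf6, Nmd3, Non3 and Nnp-1) had signals between 388 at Nnp-1 and 586 at ppan, the gene peter pan.

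The gene acting on both subunits and those not assigned had signals from 130 to 546. The helicase gene pit (pitchoune) had relative signals of 3.03, 2.85 and 1.84 (2.58 ± 0.641, SD, n = 3) in a peak of 1 gene. That peak lay at the inner of its 2 annotated starts. Peaks at its outer start were weaker, with signals of 157 and 118, and held no CACGTG within 50 bp of the summit. They also lay at starts of CG6015, CG45099 and Fadd. At nclb (no child left behind), counterpart of yeast Pwp1, they were 2.64, 3.02 and 1.21 (2.29 ± 0.955). Mybbp1A, counterpart of yeast Pol5, had 3.31, 3.51 and 2.21 (3.01 ± 0.702), but its summit lay 28 bp from the start of the ribosomal protein gene RpL36 and 318 bp from its own. The lowest of all members was Nop17l, related to an assembly factor of small nucleolar particles, with 0.593, 0.874 and 0.874 (0.780 ± 0.163). It was the only member below 1 in all 3 replicates.

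**Figure D2:**
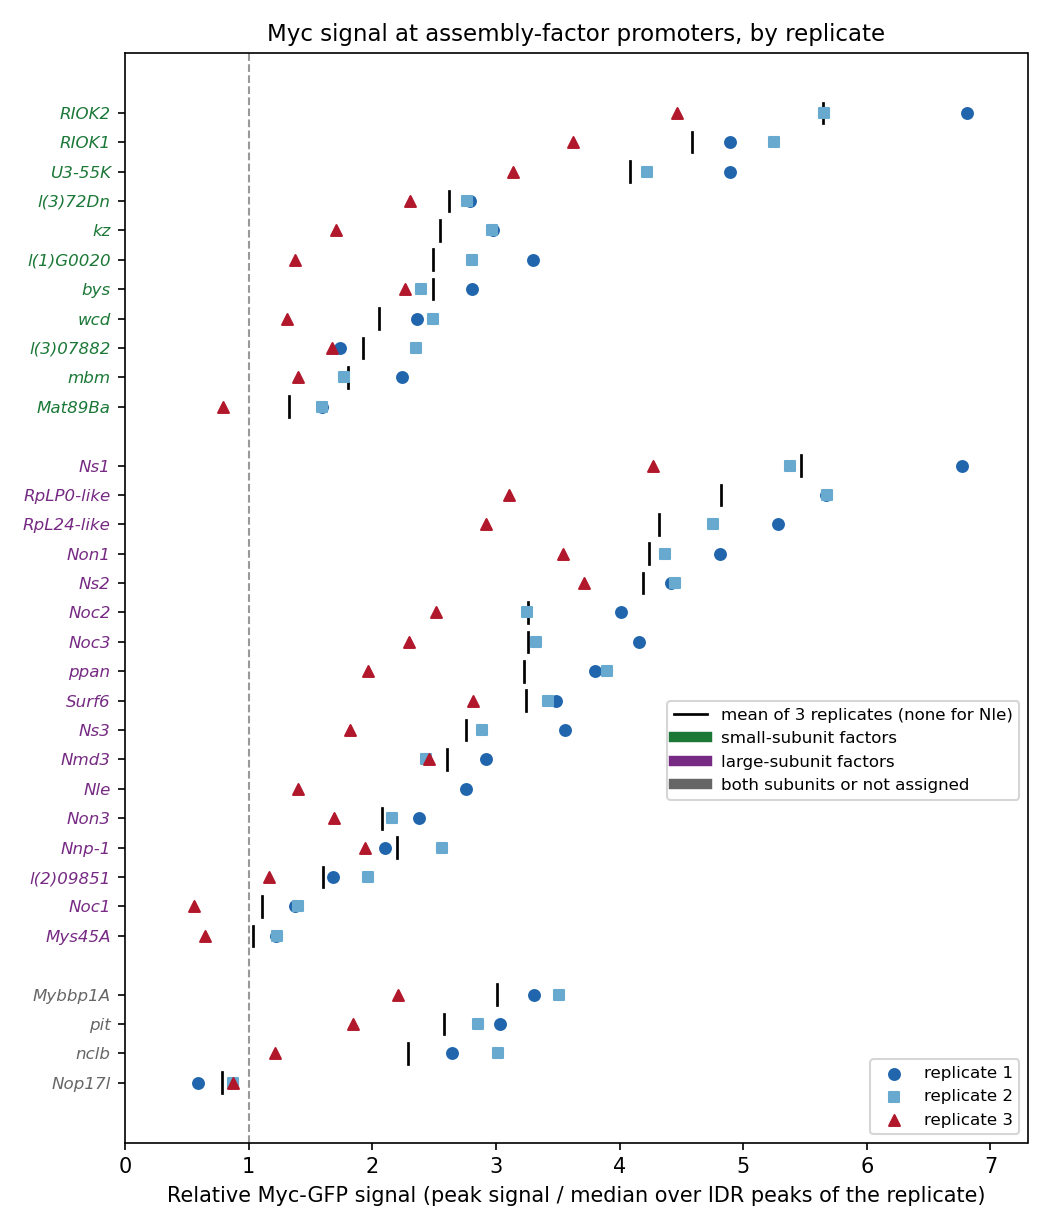
Relative Myc signal (x axis, peak signal over the replicate's median at IDR peaks) of each member (y axis), with 1 symbol per replicate and a black bar at the mean of the 3 replicates. The counterparts of yeast Nop14 and Rrb1 carry their lethal-allele symbols. Members are ordered by deposited signal within small-subunit (green), large-subunit (purple) and other (grey) factors; the dashed line marks 1, and the red triangles of replicate 3 are the lowest at 29 of 31 genes.

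Small- and large-subunit factors were compared in each replicate by the ratio of their median relative signals. The median of the 11 small-subunit factors was 2.81, 2.77 and 1.71 in replicates 1, 2 and 3, and that of the 17 large-subunit factors was 3.56, 3.29 and 2.30. Nle, a large-subunit factor without a value in replicate 2, was left out of the median of that replicate. The ratio of small to large was 0.788, 0.842 and 0.743 (mean 0.791 ± 0.0496, SD, n = 3), below 1 in 3 of 3 replicates. A two-sided exact sign-flip permutation test over the replicates gave p = 0.25, which is the smallest that 3 replicates allow. The classes overlapped almost completely, from 1.59 to 6.81 for small-subunit and from 1.22 to 6.77 for large-subunit factors in replicate 1. Among the few members whose peak lies near no other gene's start the mean ratio was 0.924 ± 0.237 (SD, n = 3) and was above 1 in 1 replicate. Factors are not replicates of a class, so the ratio describes these 28 genes only.

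The canonical E-box was present at most member peaks. CACGTG lay within 50 bp of the summit at 19 of 32 (59.4%, Wilson interval 42.3 to 74.5%), beside 6.85% of all promoter IDR peaks. Within 100 bp it was at 26 of 32, beside 9.43%, and within the deposited interval of the peak at 27 of 32 (84.4%, interval 68.2 to 93.1%), beside 14.3%. At the summits of the single replicates, 19.7 ± 2.31 members (SD, n = 3) held it within 50 bp. All 11 small-subunit factors and 14 of 17 large-subunit factors had the box in the peak, as did pit and nclb. Peaks with the box had a median signal of 476 and the 5 peaks without it 546, with ranges that overlapped (190 to 1046 and 130 to 772). The word is a palindrome, so it reads the same on both strands.

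The box lay downstream of the gene's own start at most members. In the 27 peaks with a box there were 28 boxes, of which 27 were centred downstream of the gene's own start, by 5 to 54 bp. The exception was the second box of bys, 23 bp upstream. Searched around annotated starts and regardless of peaks, a CACGTG centred 1 to 60 bp downstream was found at 29 of 32 members (90.6%, Wilson interval 75.8 to 96.9%), beside 1.87% of all protein-coding genes. The same distance upstream held a box at 1 member, beside 0.947% of all genes. The limit of 60 bp was set after the boxes were seen. The median distance was 34 bp (quartiles 30 and 40 bp), and it was 34 bp in both small-subunit factors (7 to 46 bp) and large-subunit factors (5 to 54 bp). The members without a box there were Non1, Noc3 and Nop17l.

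**Figure D3:**
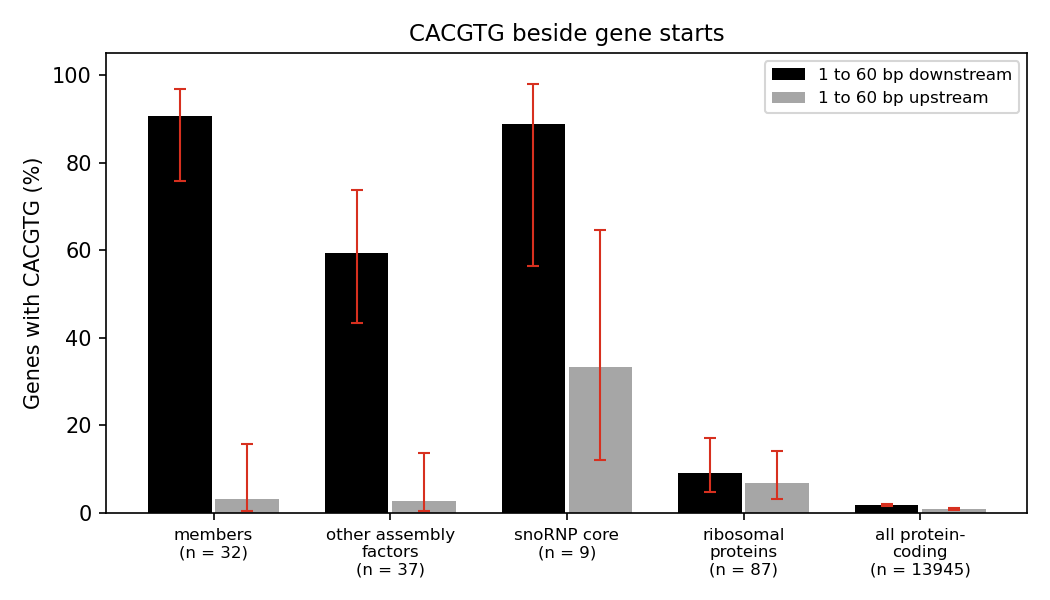
Percentage of genes with a CACGTG centred 1 to 60 bp downstream (black) or upstream (grey) of any annotated start, in the members and in 4 comparison lists; red lines are 95% Wilson intervals over genes. The downstream share is 90.6% in the members, 59.5% in other assembly factors, 88.9% in snoRNP core genes, 9.20% in ribosomal protein genes and 1.87% in all protein-coding genes.

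Summits lay from 1 to 121 bp from the box. The median distance between box and IDR summit was 27.5 bp, and it was 30 ± 5 bp (SD, n = 3) over the summits of the single replicates. Of the 28 boxes, 18 were downstream of the summit with respect to the gene and 10 upstream. At ppan the distance to the IDR summit was 1 bp, at mbm 6 bp and at Mat89Ba 7 bp, whereas at Ns2 it was 121 bp and at RIOK1 97 bp. Fragments of 200 to 800 bp, per the labels, limit how finely a summit can be placed.

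Most of these promoters are divergent. At 24 of 32 members the peak also lay within 500 bp of a start of another protein-coding gene, beside 40.6% of the 2556 peaks that are the strongest at a protein-coding gene. In each of the 24 the neighbour is read the other way from an upstream start, so a box downstream of the member's start lies upstream of the neighbour's by position alone. The summit was nearer to the member than to the neighbour at 21 of 24, the others being Ns1, Mybbp1A and Noc1. In the 19 shared peaks that hold a box, its distance from the neighbour's start ranged from 71 bp (gish, neighbour of Mat89Ba) to 492 bp (SF1, neighbour of the Nop14 gene). All 8 members whose peak lies near no other gene's start (pit, Noc2, ppan, Ns3, FBgn0022288, U3-55K, bys and wcd) had a downstream box. For pit this holds at the inner of its 2 starts.

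**Figure D4:**
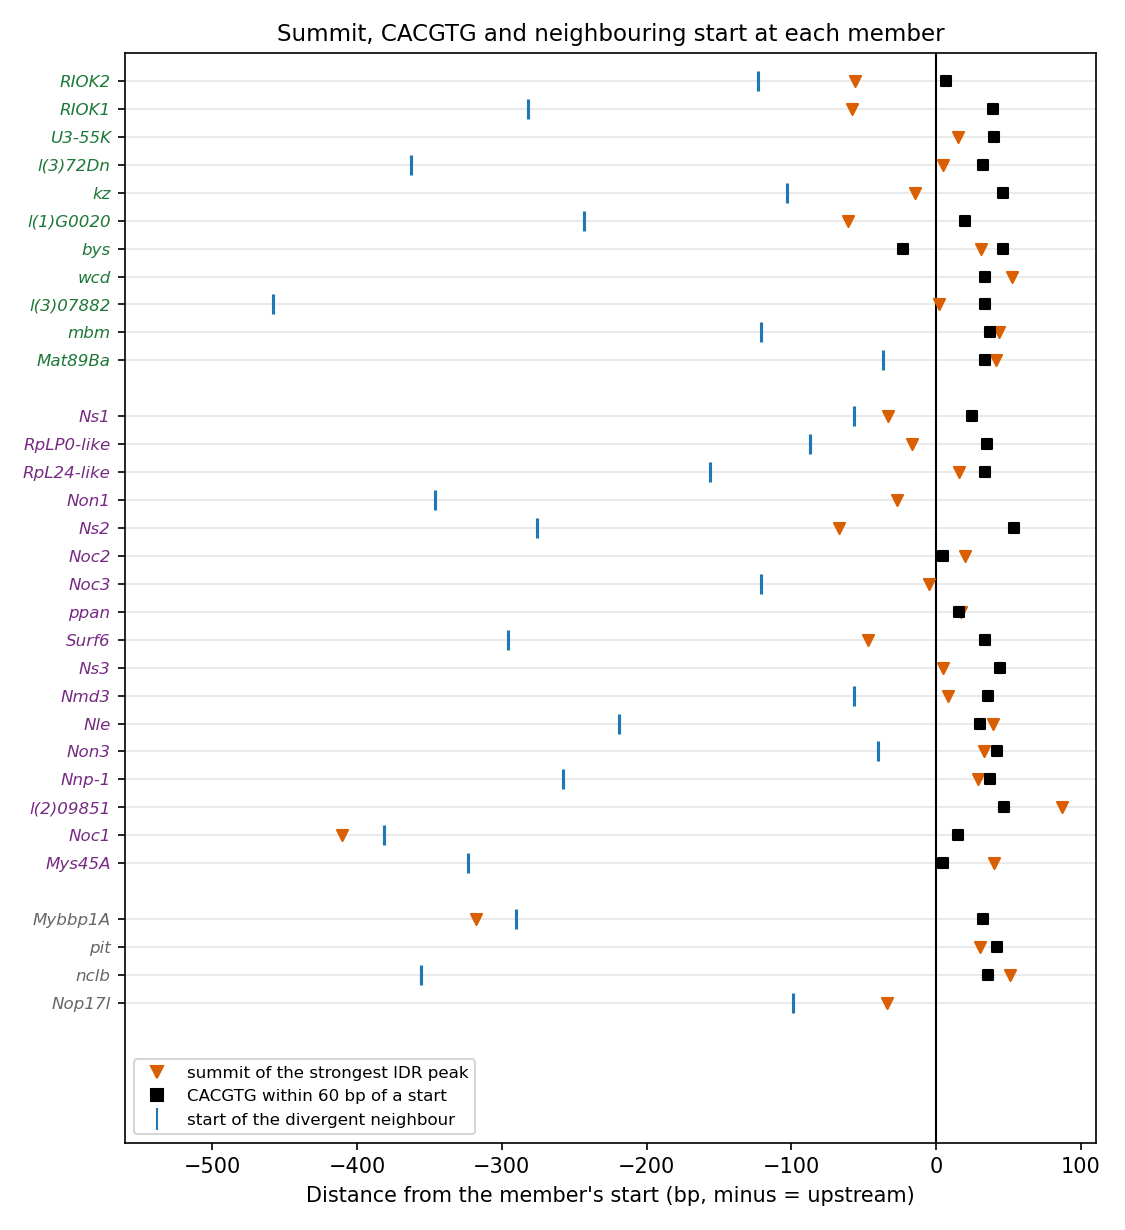
Each row is a member, aligned at its own start (0 on the x axis, distance in bp, minus for upstream), with the summit of its strongest IDR peak (orange), each CACGTG within 60 bp of a start (black squares) and the start of the divergent neighbour, where there is one (blue). Black squares fall between 5 and 54 bp downstream at 29 genes, with a second square upstream at bys, and at Noc1 and Mybbp1A the summit lies beside the blue mark of the neighbour.

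At Noc1 and Mybbp1A the box and the strongest peak were apart. Noc1 has a CACGTG 15 bp downstream of its start, and the nearest IDR summit was 425 bp from it, at Pfdn2. In the relaxed lists, which keep weak peaks, a summit within 200 bp of that box was present in replicates 1 and 2 with relative signals of 0.515 and 0.494, and none was listed in replicate 3. Mybbp1A has a box 32 bp downstream of its start, 150 bp from a further IDR peak with a signal of 242. That peak had relative signals of 1.63, 1.66 and 0.434 in the 3 replicates. A box at the common position was thus found with a strong peak at most members and without an IDR peak within 200 bp at Noc1.

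The bases beside the box were also alike. Of the 28 boxes in member peaks, 24 (85.7%, Wilson interval 68.5 to 94.3%) had an A before and a C after, or the same read on the opposite strand, which makes ACACGTGC or GCACGTGT. On the strand of the gene 13 boxes read ACACGTGC and 11 read GCACGTGT. In promoter IDR peaks other than the members' strongest, 426 boxes were counted, and 28.9% had these flanks. That count includes boxes in further peaks of members, and a box in overlapping peaks was counted in each. Of all CACGTG on the 6 arms 17.4% had them. The 4 member boxes with other flanks belonged to Ns1, Ns2, FBgn0022288 and U3-55K. The genes pit, RIOK1, Mat89Ba and Nnp-1 shared the 12 letters gcaaCACGTGcg, with the box in capitals. These flanks were examined after the sequences were seen.

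Other words were at few member summits. The variant E-boxes CACGCG and CATGTG were within 50 bp of the summit at 2 and 3 of 32 members, beside 6.19% and 7.19% of promoter IDR peaks, searched on both strands. CATGTG was present at Non1 and Noc3, which lack the canonical box, and at l(1)G0020. The DREF word TATCGATA was found at 4 members (pit, kz, mbm and Mybbp1A), beside 6.75%, and the Motif 1 core GGTCACAC at 2 (Mys45A and nclb), beside 5.22%. Nop17l held none of these words within 50 bp of its summit.

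Further genes of the same pathway were taken from a list of assembly factors chosen by symbol, with 37 of 38 names found. Of these 37 genes 36 were bound, beside 26.0% of all genes, with a median signal of 433, and 22 (59.5%, Wilson interval 43.5 to 73.7%) had a CACGTG 1 to 60 bp downstream of a start. The core proteins of small nucleolar particles were bound in 9 of 9 cases with a median signal of 887, and 8 of 9 had the downstream box. Of the genes of cytosolic ribosomal proteins 81 of 87 were bound with a median signal of 499, close to that of the members, yet 8 of 87 (9.20%) had the downstream box. The longer word ACACGTGC lay 1 to 60 bp downstream of a start at 24 of 32 members, at 11 of 37 other assembly factors, at 3 of 9 snoRNP core genes, at 1 of 87 ribosomal protein genes and at 0.767% of all genes. Over all protein-coding genes, 261 had CACGTG 1 to 60 bp downstream of a start, and 182 of them (69.7%) were bound.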

How the data were processed

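The authors' deposited dm6 peak lists were used: 1 per replicate (29853, 26058 and 25842 peaks), 1 pooled and 1 thresholded for irreproducible discovery rate (IDR). Per the deposited file listing, relaxed lists came from alignments with a control, and the IDR peaks were made from these lists. Peak caller, aligner, IDR threshold and read depth were not stated there. Signal is the caller's score as deposited by the authors; their deposited −log10 q values were not used for any result. The dm3 lists were not analysed here.

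Starts came from Ensembl release 115 (BDGP6.54). A gene was bound when an IDR summit lay within 500 bp of any start, and its strongest such peak was described. A replicate's value is the strongest relaxed summit within 100 bp, divided by its median at IDR peaks (66.3, 53.2 and 64.5). Words were searched on both strands, and a box is placed by the left of its central bases. Replicates are called biological in the labels, and SDs measure the spread between these samples. Python 3.11.15, pandas 2.3.3 and SciPy 1.17.1 were used, and the code was tested on simulated data.

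Values in all replicates are given for the 5 strongest and 3 weakest factors of each subunit and for factors of both subunits or not assigned. They are also given for members outside a replicate's strongest list and for those with several boxes. Members and lists were chosen with earlier results of these data known, and the 60 bp window and the flanks after the boxes were seen.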

Additional observations from a re-analysis of the deposited data

How the results depend on the processing

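Of 30 alternatives, 28 were labelled the same as the main result, 2 moved and 0 reversed. The label has wide limits, so this tally is a weak measure of stability. Counts of 26 and 27 members with CACGTG, against 19 in the main result, were labelled the same. So was any mean ratio below 1, including 0.924 in peaks of 1 gene only, where the highest replicate was 1.20. Only the small to large ratio could reverse a direction, and rescaling it by another median cancels out. Those that moved were the distance without replicate 1 and the downstream boxes in peaks of 1 gene only, where fewer genes were counted. The number of bound members was 30 to 32 under a narrower and a wider window, the single nearest start, the stronger part of the IDR list and the strongest lists of all 3 replicates, and 30 to 31 when a replicate was left out; the genes lost were Noc1, Ns1 and Nop17l. The small to large ratio was 0.859 when classes followed the yeast ortholog. That setting counted Mybbp1A and nclb as large-subunit factors and left out mbm, which has no class by yeast. The ratio was 0.765 to 0.815 with a replicate left out. CACGTG was at 16 to 17 members when required at the summits of the 2 remaining replicates. The alternatives for the position of the box were added after seeing the data. The distance between box and summit was 27.5 to 32.5 bp with a replicate left out (32.5 bp without replicate 1). With peaks of 1 gene only, 8 of 8 members had the downstream box. The deposited IDR signal combines the replicates, so none could be left out of its median. The samples form 1 group, so no pairing between conditions existed, and the subunit classes were compared within each replicate. The lists hold no read counts, so single weak peaks such as that of Nop17l have no counting interval.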
